A study of Mus musculus with 6 samples.

Results

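The circadian clock genes described here are 10 genes of the mouse transcriptional clock: the period genes Per1, Per2 and Per3, the cryptochrome genes Cry1 and Cry2, the activator gene Arntl (BMAL1), the REV-ERB genes Nr1d1 and Nr1d2, and the PAR bZIP genes Dbp and Tef. They were found by gene symbol among 53346 symbols, and each symbol had 1 entry. The assay was sequencing of poly(A) RNA from a mouse glioma culture at 3 doses of SHP099 (0, 5 and 10 µM), which blocks the tyrosine phosphatase SHP-2 at an allosteric site. Per the labels, all 3 cultures are of 1 model: Ink4a/Arf-/- astrocytes with PDGFRa and PDGF-A. By the file labels, each dose was read as 1 library run in lanes 6 and 7 of a sequencer, so n = 1 per dose and the lanes show sequencing error only. Treatment length, hour of harvest and synchronisation are not in the labels, so dose, culture and clock time cannot be told apart.

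In mammalian cells, BMAL1 and its partner CLOCK bind E-box elements and switch on the Per, Cry, Nr1d, Dbp and Tef genes. PER and CRY proteins then repress BMAL1 and CLOCK, which closes the main loop. In a second loop, REV-ERB proteins (from Nr1d1 and Nr1d2) repress Arntl through elements called ROREs, on which ROR receptors act as activators. DBP, TEF and HLF activate genes through D-box elements, and NFIL3 represses the same elements.

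RefSeq promoter windows (GRCm38.p6, 250 bases before to 50 after an annotated start site) were at hand for 9 of the 10 genes, in 12 windows; Per2 had none. They were searched on both strands for the E-box CACGTG, its variant CACGTT, the D-box TTATGNAA, the RORE core TAGGTCA and the cAMP response element TGACGTCA. The stretches printed are those of Arntl, Nr1d1 and Tef, which were called at 10 µM, and of Per3 and Ciart, which hold 2 and 3 copies of a motif. They run 5′ to 3′ on the gene's strand, with the match in capitals. The coordinates are those of the whole printed stretch. The RORE core of Arntl lies within chr7:113207530-113207559 (plus strand), and starts 31 bases into the transcript from the second start site. The variant E-box of Nr1d1, read as its reverse complement AACGTG, lies within chr11:98775385-98775420 (minus strand). The E-boxes of Tef lie within chr15:81802531-81802566 and chr15:81811261-81811296 (plus strand), with 1 E-box before each start site. The D-boxes of Per3 lie within chr4:151044801-151044885 (minus strand). Ciart, a further clock repressor, has 3 E-boxes within chr3:95882252-95882359 (minus strand).
Arntl: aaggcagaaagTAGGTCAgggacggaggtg
Nr1d1: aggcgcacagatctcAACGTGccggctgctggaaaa
Tef, first start: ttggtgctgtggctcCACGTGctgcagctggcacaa
Tef, second start: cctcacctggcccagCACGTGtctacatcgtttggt
Per3: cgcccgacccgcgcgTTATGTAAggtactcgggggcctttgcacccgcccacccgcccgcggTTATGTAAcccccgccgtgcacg
Ciart: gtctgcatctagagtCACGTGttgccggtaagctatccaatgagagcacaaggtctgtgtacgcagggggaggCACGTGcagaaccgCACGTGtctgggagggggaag

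The E-box was found for Cry1, Per1 and Tef, 3 of the 9 genes, against 8.09% of 27025 genes with a window. The variant E-box was found for Cry1, Cry2 and Nr1d1, against 5.44% of all genes. The D-box was found for Per1 and Per3, against 3.99%, and the RORE core for Arntl, against 2.97%. None of the 9 held the cAMP response element, which 2.03% of genes hold. Dbp and Nr1d2 held no match in these windows, and elements outside them were not searched. A match describes the letters of a window and is not evidence of binding.

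**Figure D1:**
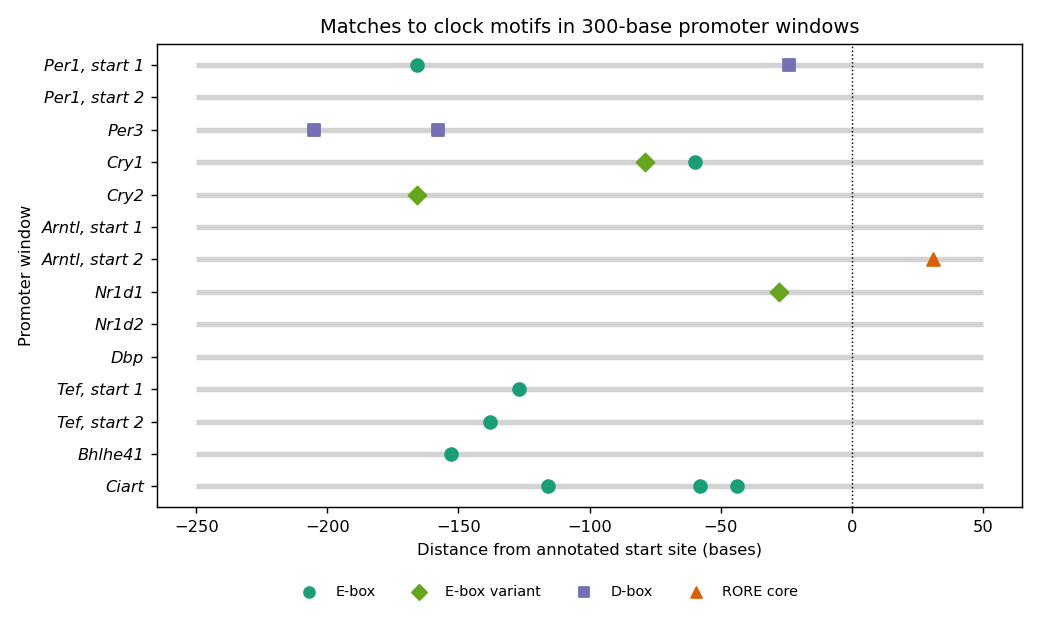
Matches to 4 clock motifs in the promoter windows of 9 clock genes and of Bhlhe41 and Ciart; each grey line is 1 window from 250 bases before to 50 after an annotated start site (dotted line), with the distance in bases on the horizontal axis. Ciart holds 3 E-boxes and Per3 holds 2 D-boxes, and the single RORE core lies 31 bases after the second start of Arntl.

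Levels are FPKM as the authors deposited them, a unit of fragments scaled by transcript length and by mapped fragments. How the authors computed or scaled them is not given. All 10 genes were above 1 FPKM at every dose, so none passed that level through 1 dose alone. A gene is called higher or lower when its mean on the scale log2(FPKM + 1) moved 1.5-fold or more and each of the 4 possible lane pairs gives 1 direction. Folds are given with their range over the 4 lane pairs. They understate the change of genes near 1 FPKM. No p-value is given, since there is no second library of any dose.

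Depth was fitted to the spacing of low FPKM values. By this fit, the 0 µM lanes held 46880000 and 47120000 fragments, the 5 µM lanes 37900000 and 38580000, and either 10 µM lane 30820000. With the longest coding transcript of each gene, the lowest lane of any clock gene then held about 390 fragments, a counting error of 5.06%. The lanes of a dose differed by a median log2 value of 0.06 to 0.07 for the 10 genes. Among them the widest lane gap was that of Per2 at 0 µM, 0.25 on the log2 scale. Ptpn11, which encodes SHP-2, was at 59.0, 58.4 and 57.7 FPKM at 0, 5 and 10 µM. Cdkn2a, the Ink4a/Arf locus deleted per the labels, nevertheless had 535.7, 822.6 and 802.8 FPKM. Of 12 astrocyte markers, 6 reached 1 FPKM, among them Slc1a3 and Sox9, whereas Gfap and Aqp4 were at or near 0. Of 7 progenitor markers, 3 reached 1 FPKM, and Olig2 was listed at 0. Markers of microglia reached 1 FPKM for 3 of 10 genes, among them Tmem119 and Cd68, with C1qa listed at 0, and those of endothelium for 0 of 5. Of the 6 fibroblast and meningeal markers, 5 reached 1 FPKM, and all 5 were called higher at 10 µM, where 15.7% of all genes were.

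At 10 µM, the activator gene Arntl and the repressor genes Nr1d1 and Per2 were lower than at 0 µM, and the D-box activators Dbp and Tef were higher. Per1, Per3, Cry1, Cry2 and Nr1d2 were not called. In all, 5 of 10 genes were called, 2 higher and 3 lower, where 34.8% of the 12567 genes with at least 1 FPKM in a dose were called (15.7% higher and 19.1% lower). With files scaled to equal sums, 3 clock genes were higher and 1 lower, and over all genes 3032 were higher and 1601 lower, against 1978 higher and 2396 lower as deposited. Scaling by a trimmed mean or to a median log2 fold of 0 kept all 5 clock gene calls, 2 higher and 3 lower. Over all genes, either gave 2135 higher and 2236 lower. The share called is thus no sign that the clock genes stand apart. Their median log2 fold was −0.06, and that of all genes was −0.03. At 5 µM, 3 of 10 were called, 2 higher and 1 lower, where 30.9% of all genes were (14.1% higher and 16.8% lower). Between 10 and 5 µM none of the 10 was called, where 1.77% of all genes were. In bulk RNA, fewer cells of a type and less RNA per cell cannot be told apart. The comparisons of 5 and 10 µM share the 0 µM library, so their likeness is no second measurement. The levels in each lane and the folds are plotted by gene.

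**Figure D2:**
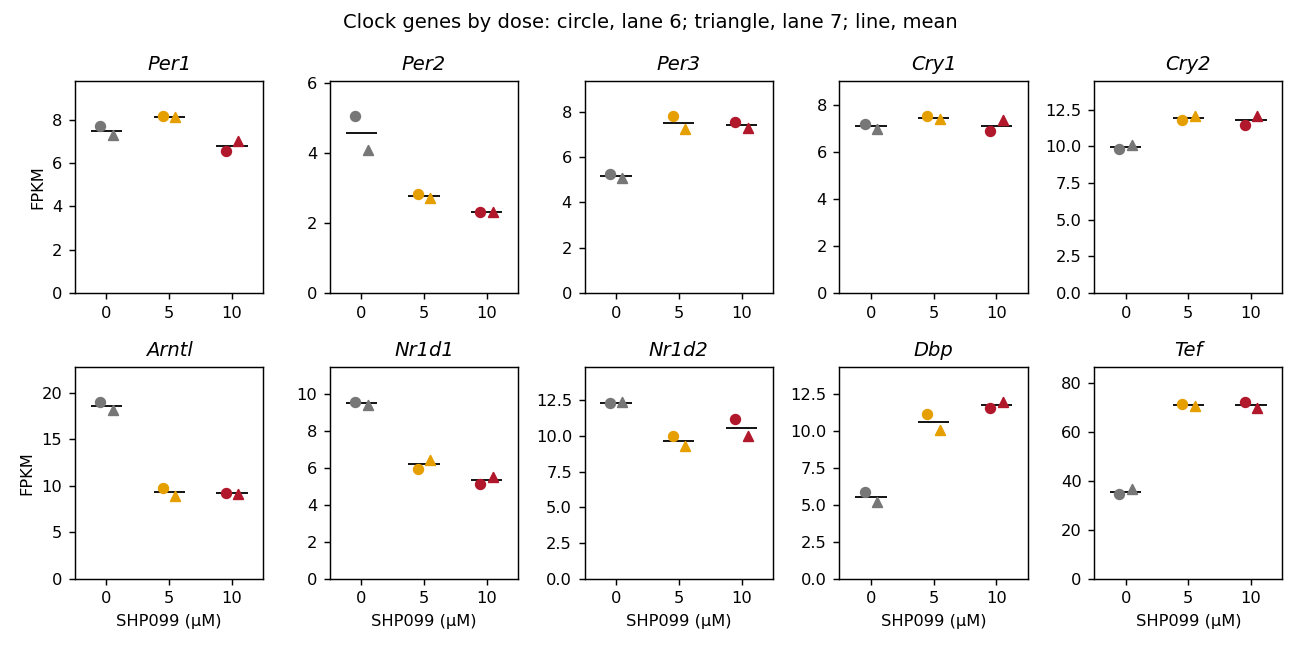
FPKM of the 10 clock genes by dose of SHP099 (µM), with 1 point per lane (circle, lane 6; triangle, lane 7) and a line at the mean of the lanes; each panel has its own axis from 0. All treated lanes of Arntl, Per2 and Nr1d1 sit below the lanes at 0 µM, those of Dbp and Tef sit above them, and Cry1 overlaps between 10 and 0 µM.

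Arntl (ENSMUSG00000055116), whose protein BMAL1 pairs with CLOCK on E-boxes, had 19.0 and 18.1 FPKM at 0 µM, 9.74 and 8.86 at 5 µM, then 9.28 and 9.15 at 10 µM. Both treated libraries lay below the untreated one without overlap, and they overlapped each other. The log2 fold was −0.94 (−0.98 to −0.90) at 10 against 0 µM and −0.93 (−1.02 to −0.83) at 5 against 0 µM. This was the largest fall among the 10 genes, and 9.25% of all genes had a lower fold at 10 µM. The call was the same under every alternative tried other than the 2-fold rule.

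The REV-ERB genes, whose products repress Arntl, were below the untreated level at both doses, and Nr1d1 was called at 10 µM. Nr1d1 (ENSMUSG00000020889) had 9.56 and 9.41 FPKM at 0 µM, 5.94 and 6.42 at 5 µM, then 5.12 and 5.53 at 10 µM. The 3 doses did not overlap, and the level was lowest at 10 µM. Its log2 fold was −0.73 (−0.79 to −0.67) at 10 against 0 µM, a call that was lost with files scaled to equal sums (−0.54) and with a pseudocount of 5 FPKM (−0.49). At 5 against 0 µM it was −0.55 (−0.60 to −0.49) and not called, but without the lane 7 file of 5 µM it was called (−0.59). Exons of Nr1d1 share 263 bases with Thra, a thyroid hormone receptor gene on the opposite strand, which is 8.55% of the exonic bases of Nr1d1. Thra moved the other way, with 28.8, 64.6 and 54.0 FPKM at 0, 5 and 10 µM (log2 fold 0.88 at 10 against 0 µM, called higher). The labels do not say whether the counting used strand, so fragments of the shared stretch cannot be assigned. Nr1d2, the paralogue of Nr1d1, had 12.3 and 12.4 FPKM at 0 µM, 9.97 and 9.29 at 5 µM, then 11.2 and 10.02 at 10 µM. It was below the untreated library at both doses, by −0.20 (−0.28 to −0.13) at 10 µM and −0.33 (−0.38 to −0.28) at 5 µM, and was not called. With equal sums the value at 10 µM was −0.00.

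The period genes, which encode the repressors of the main loop, differed among themselves, and Per2 alone was called. Per2 (ENSMUSG00000055866) had 5.05 and 4.10 FPKM at 0 µM, 2.85 and 2.71 at 5 µM, then 2.32 and 2.33 at 10 µM. The doses did not overlap, and the level was lowest at 10 µM, although the lanes at 0 µM were 23.3% apart. Per2 had a log2 fold of −0.74 (−0.87 to −0.61) at 10 against 0 µM, which was no longer called with equal sums (−0.58) or a pseudocount of 5 FPKM (−0.38). At 5 against 0 µM its fold was −0.56 (−0.71 to −0.41), not called, but called without the lane 7 file of 0 µM (−0.68).

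Per3, a period gene that is not needed for the core loop in mice, had 5.23 and 5.05 FPKM at 0 µM, 7.79 and 7.24 at 5 µM, then 7.55 and 7.25 at 10 µM. Both treated libraries lay above the untreated one, by 0.45 (0.41 to 0.50) at 10 µM and 0.47 (0.40 to 0.54) at 5 µM. These folds miss the 1.5-fold rule, and pass it with files scaled to equal sums (0.65 at 10 µM and 0.63 at 5 µM). Its promoter window is the one printed above with 2 D-boxes. Per1, the period gene that responds fastest to resetting signals, had 7.71 and 7.28 FPKM at 0 µM, 8.15 and 8.14 at 5 µM, then 6.56 and 7.004 at 10 µM. Its folds of −0.13 (−0.21 to −0.05) at 10 µM and 0.11 (0.07 to 0.14) at 5 µM were small and of opposite sign, and the first became 0.06 with equal sums.

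The cryptochromes, which are the main repressors of CLOCK and BMAL1, were not called at either dose. Cry1 had 7.20 and 6.98 FPKM at 0 µM, 7.52 and 7.42 at 5 µM, then 6.89 and 7.36 at 10 µM. The lanes at 10 and 0 µM overlapped, and the fold was 0.01 (−0.06 to 0.07). Cry2 had 9.80 and 10.1 FPKM at 0 µM, 11.8 and 12.05 at 5 µM, then 11.5 and 12.05 at 10 µM. It lay above the untreated library at both doses but by little, at 0.22 (0.17 to 0.27) for 10 µM and 0.24 (0.20 to 0.27) for 5 µM.

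The PAR bZIP genes were both higher. Dbp (ENSMUSG00000059824), an output gene of E-boxes and an activator of D-boxes, had 5.85 and 5.18 FPKM at 0 µM, 11.1 and 10.1 at 5 µM, then 11.5 and 11.9 at 10 µM. All treated lanes lay above both untreated ones. The log2 fold was 0.97 (0.87 to 1.07) at 10 against 0 µM and 0.83 (0.69 to 0.97) at 5 against 0 µM. The call at 5 µM was lost with a pseudocount of 5 FPKM (0.57). Dbp shares 539 exonic bases, 18.0% of its own, with Sphk2 on the opposite strand, a sphingosine kinase gene at 6.87, 8.81 and 8.97 FPKM at 0, 5 and 10 µM (log2 fold 0.34 at 10 against 0 µM, not called).

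Tef (ENSMUSG00000022389), the thyrotroph embryonic factor gene, was the most abundant clock gene at every dose. It had 34.6 and 36.7 FPKM at 0 µM, 71.6 and 70.6 at 5 µM, then 72.3 and 69.7 at 10 µM. The lanes at 5 and 10 µM overlapped, and both stood apart from those at 0 µM. Its fold was 0.98 (0.91 to 1.04) at 10 against 0 µM and 0.98 (0.92 to 1.03) at 5 against 0 µM, and 93.7% of all genes had a lower fold at 10 µM. Outside the lists, the 5 genes nearest to Tef in both folds were Chadl, Ccdc136, Zic2, Ddit3 and Zfr2, at distances of 0.0012 to 0.020 on the log2 scale. These distances rest on 3 libraries and on the pseudocount of 1 FPKM. Chadl averaged 1.11, 3.17 and 3.15 FPKM at 0, 5 and 10 µM, a wider ratio than that of Tef, and Zfr2, at 0.277, 1.48 and 1.53 FPKM, passed the level filter only through the treated doses. Ddit3, which encodes the stress factor CHOP, was at 56.0, 110.7 and 112.4 FPKM, above Tef at every dose.

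**Figure D3:**
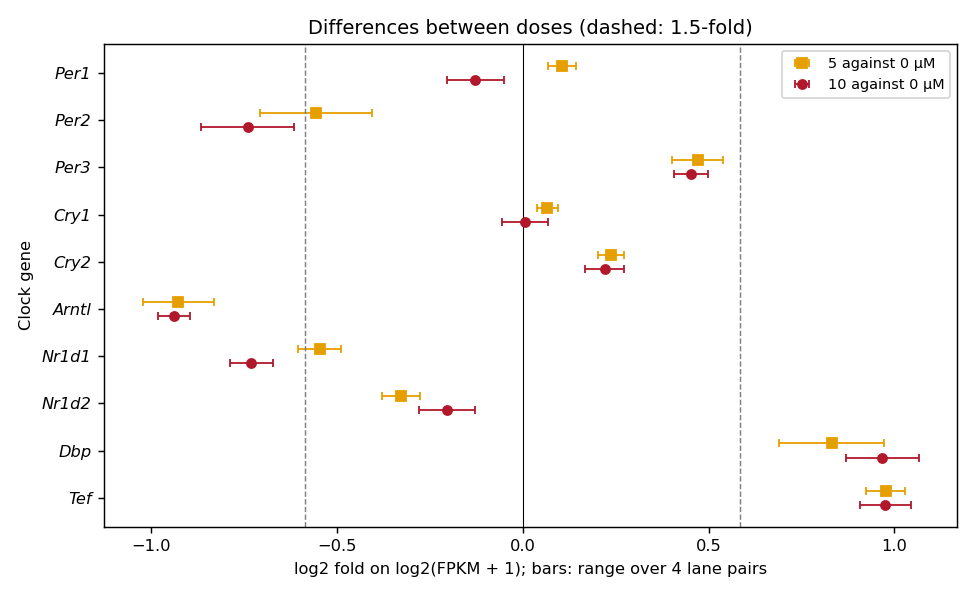
Log2 folds of the 10 clock genes on log2(FPKM + 1) for 5 against 0 µM (squares) and 10 against 0 µM (circles); bars span the 4 lane pairs and dashed lines mark 1.5-fold. Arntl lies at −0.93 and −0.94, Dbp at 0.83 and 0.97 and Tef at 0.98 and 0.98, while Cry1 lies at 0.07 and 0.01.

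The order of the levels differed between doses. At 0 µM it ran Tef, Arntl, Nr1d2, Cry2, Nr1d1, Per1, Cry1, Dbp, Per3 and Per2, and the lanes of neighbours overlapped for Dbp and Per3 alone. At 5 µM it ran Tef, Cry2, Dbp, Nr1d2, Arntl, Per1, Per3, Cry1, Nr1d1 and Per2, with overlap of Nr1d2 and Arntl and of Per3 and Cry1. At 10 µM it ran Tef, Cry2, Dbp, Nr1d2, Arntl, Per3, Cry1, Per1, Nr1d1 and Per2, with overlap of Cry2 and Dbp, of Per3 and Cry1, and of Cry1 and Per1. Arntl ranked 2 at 0 µM and 5 at both 5 and 10 µM, and Dbp ranked 8 at 0 µM and 3 at both 5 and 10 µM. The mean FPKM ratio of 10 to 0 µM was 0.496 for Arntl, 0.508 for Per2, 0.561 for Nr1d1, 1.99 for Tef and 2.13 for Dbp.

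The other genes of the clock pathway were taken as a list of 42, of which 36 reached 1 FPKM in a dose. At 10 µM, 4 were called higher and 8 lower, 33.3% of the 36, close to the background of 34.8%. Their median log2 fold was −0.12. At 5 µM, 4 were higher and 6 lower, 27.8% of the 36, where 30.9% of all genes were called. Between 10 and 5 µM only Timeless was called, as lower (−0.65), where 1.35% of all genes were lower. With files scaled to equal sums, 12 of the list were higher and 4 lower at 10 µM, and 7 higher and 4 lower at 5 µM. Of all 12758 genes then compared, 3032 were higher and 1601 lower at 10 µM, and 2642 higher and 1410 lower at 5 µM. Trimmed mean and median scaling gave 5 of the list higher and 6 lower at 10 µM, and 4 higher and 6 lower at 5 µM.

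Among the activators, Clock, the partner of Arntl, had 11.2 and 11.05 FPKM at 0 µM, 9.50 and 9.57 at 5 µM, then 10.3 and 10.4 at 10 µM. Its fold of −0.10 (−0.12 to −0.08) at 10 against 0 µM was not called, and it was 0.10 with equal sums. Arntl2, a paralogue of Arntl, averaged 4.27, 3.25 and 2.98 FPKM at 0, 5 and 10 µM and was not called either (−0.40 at 10 µM). Npas2, which can stand in for CLOCK, and the ROR genes Rora and Rorb were all under 0.1 FPKM in every lane. Rora and Rorb were thus at or near the detection limit, 0.0318 to 0.0487 FPKM for 3 fragments of a 2 kb transcript.

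Of 4 further repressors, 2 were higher and 1 lower at 10 µM, where 15.7% of all genes were higher and 19.1% lower. Bhlhe41 (DEC2), which competes for E-boxes, had 3.39 and 3.83 FPKM at 0 µM, 6.69 and 6.31 at 5 µM, then 7.84 and 7.86 at 10 µM. The doses did not overlap, and the fold at 10 µM was 0.94 (0.87 to 1.01), but under a pseudocount of 5 FPKM it was 0.58, which misses the rule. Its paralogue Bhlhe40 (DEC1) went the other way, with 25.9 and 24.9 FPKM at 0 µM, 15.1 and 15.1 at 5 µM, then 17.2 and 15.7 at 10 µM. Its fold of −0.60 (−0.69 to −0.51) at 10 µM lay at the threshold and was lost under 8 of 17 alternatives, among them leaving out lane 6 of 0 µM (−0.57) or lane 7 of 10 µM (−0.53). Ciart (CHRONO), a repressor of BMAL1 and CLOCK whose 3 E-boxes are printed above, had 10.1 and 8.96 FPKM at 0 µM, 15.3 and 14.99 at 5 µM, then 14.9 and 15.4 at 10 µM. Its fold was 0.62 (0.52 to 0.72) at 10 µM, and 0.54 and not called without the lane 7 file of 0 µM. Nfil3, the D-box repressor, was at 11.8, 11.2 and 12.3 FPKM and not called.

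Hlf, a further PAR bZIP gene, had 10.04 and 7.83 FPKM at 0 µM, 14.7 and 14.1 at 5 µM, then 11.3 and 12.5 at 10 µM. It was called higher at 5 µM (0.64, 0.45 to 0.83), though at 0.48 the fold missed the rule once lane 7 of 0 µM was left out, and it was not called at 10 µM (0.38, 0.15 to 0.61). All 3 PAR bZIP genes had treated levels above both untreated lanes, but lanes without overlap were common. At 10 against 0 µM, 9 of the 10 clock genes and 32 of the 36 other pathway genes had none. That share was not counted over all genes, so no result about the clock genes is read from these counts. Among the 3 PAR bZIP genes, Hlf had the widest lane spread at 0 and 10 µM, and Dbp had it at 5 µM.

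Of 13 genes for kinases and ubiquitin enzymes that modify or degrade PER and CRY, 1 was higher and 1 lower at 10 µM. That is 15.4% of the 13, where 34.8% of all genes were called. With equal sums 3 were higher, namely Fbxl21, Gsk3b (0.59) and the deubiquitinase gene Usp2 (0.60), and none was lower. Usp2 (0.46 as deposited) was also called with lane 6 of 0 µM (0.61) or lane 6 of 10 µM (0.61) left out. Fbxl21, an F-box gene of a ubiquitin ligase that acts on CRY, was at 0.96, 1.81 and 2.38 FPKM at 0, 5 and 10 µM (0.79) and passed the level filter only through the treated doses. Gsk3a, a kinase of clock proteins, was at 27.8, 19.1 and 17.6 FPKM (−0.63, but −0.43 and not called with equal sums). Csnk2a2, a catalytic subunit of casein kinase 2, was at −0.57 and Csnk1e, casein kinase 1 epsilon, at −0.54, both not called. However, Csnk2a2 was called with lane 6 of 0 µM left out (−0.59), and Csnk1e in the lane 6 files alone (−0.59). Of 8 genes for resetting inputs, 7 were measured and none was called as reported, where 34.8% of all genes were called at 10 µM. At 10 against 0 µM the largest folds were those of Crtc3, a CREB coactivator (0.53), Nr3c1, the glucocorticoid receptor (0.53), the CREB isoform gene Crem (0.47) and Creb1 itself (−0.47). At 5 against 0 µM it was that of Sik1, a kinase that restrains CREB coactivators (0.51, not called). With equal sums, Crtc3 (0.74), Nr3c1 (0.74), Sik1 (0.65) and Crem (0.65) were called higher at 10 µM, and Crem was also called with lane 7 of 0 µM left out (0.61).

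Of 8 genes that cycle with the clock in many mouse tissues, 7 were measured. At 10 µM, 1 was higher and 4 were lower. That is 71.4% of the 7, where 34.8% of all genes were called (15.7% higher and 19.1% lower). The list is small and was chosen with earlier results of these data known, and the difference in share was not tested. With equal sums, Por (−0.51) and Nampt (−0.39) were not called and Klf9, a zinc finger factor gene (0.57 as deposited, not called), was higher (0.78), which gives 2 higher and 2 lower. Klf9 was also called with lane 7 of 0 µM (0.59) or lane 6 of 10 µM (0.60) left out. Fkbp5 was at 44.5, 22.4 and 18.5 FPKM at 0, 5 and 10 µM (−1.23), and Tsc22d3 at 10.4, 23.8 and 24.8 FPKM (1.18). Both are also known glucocorticoid targets, and they moved in opposite directions. Wee1, a kinase that inhibits entry into mitosis, was at 18.3, 9.98 and 8.80 FPKM (−0.98). Por, the cytochrome P450 reductase gene, was at 117.9, 84.8 and 71.0 FPKM (−0.72). Nampt, an enzyme gene of NAD synthesis, was at 29.1, 18.4 and 18.9 FPKM (−0.60). Its call was lost with lane 7 of 10 µM left out (−0.56).

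Timeless and Tipin had the largest folds of the pathway list. Timeless had 20.8 and 22.0 FPKM at 0 µM, 5.04 and 4.799 at 5 µM, then 2.93 and 2.61 at 10 µM (−2.57, −2.67 to −2.47, at 10 against 0 µM). Tipin was at 58.2, 18.2 and 15.5 FPKM (−1.85, −1.94 to −1.76). Timeless is a clock gene in flies, while in mammals both products are known foremost as a complex that protects replication forks. All 8 cell-cycle markers listed were called lower at both doses, where 16.8% of all genes were at 5 µM and 19.1% at 10 µM. Their summed levels were 1219 and 1218 FPKM at 0 µM, 271.0 and 259.1 at 5 µM, then 166.7 and 165.9 at 10 µM. The 12 astrocyte markers summed to 291.0 and 290.7 FPKM at 10 µM, against 101.6 and 103.8 at 0 µM, and the difference was that of Clu, which averaged 229.6 FPKM at 10 µM, against 24.7 at 0 µM. Of the other 5 measured, Glul was lower (−0.64), and Gja1 (−0.36), Sox9 (−0.28), Slc1a3 (−0.00) and Ndrg2 (0.48) were not called. The 6 fibroblast and meningeal markers summed to 4680 and 4666 FPKM at 10 µM, against 2437 and 2440 at 0 µM. The part of the cell cycle or of cell identity in the clock gene levels was not tested.

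**Figure D4:**
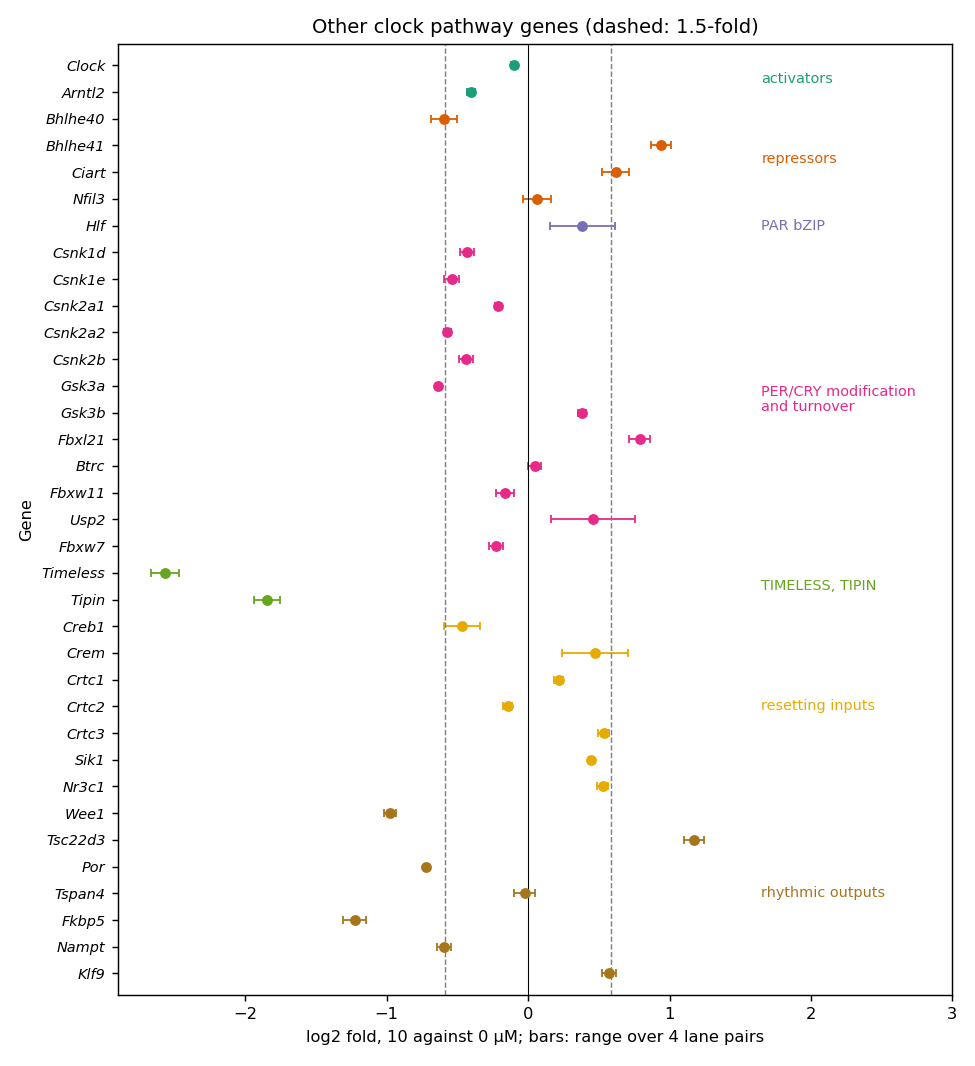
Log2 folds at 10 against 0 µM for 35 of the 36 measured genes of the wider clock pathway, coloured by role; bars span the 4 lane pairs and dashed lines mark 1.5-fold. Timeless (−2.57) and Tipin (−1.85) lie farthest from 0, followed by Fkbp5 (−1.23) and Tsc22d3 (1.18), while Clock (−0.10) and Nfil3 (0.06) lie near 0.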

How the data were processed

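Each of the 6 deposited files holds 1 FPKM value per gene for 1 lane, computed by the authors. Bowtie 0.12.2 and mm8 appear in the submitters' processing notes. How FPKM were computed, or scaled across lanes, is not given in the sources used here. Lanes of a dose were read as runs of 1 library. Entries of a symbol were summed, and the 12567 genes whose mean reached 1 FPKM at any dose were compared at 1.5-fold on log2(FPKM + 1). Mapped fragments were fitted so that genes with 1 transcript of 1500 to 6000 bases and under 10 fragments gave whole numbers within 0.1. From the length, 240 bases were subtracted. At the fitted depths 97.6% to 98.4% of such genes gave whole numbers, where 20% would at a depth not fitted. The depths were picked for a high share, so 20% is not the chance level of the fit. Counting errors cover counting only. The call rule was tried on simulated data that held counting error only, which cannot speak to differences between cultures. The 10 genes and all lists were chosen with earlier results of these data known. Named genes are the 10, up to 4 per list with the largest folds (all, in lists of 3 or fewer), Ptpn11, Cdkn2a, the gene with the widest lane gap (Snora62), up to 2 per marker list and the 5 nearest to the clock gene with the largest fold at 10 µM on the log2(FPKM + 1) scale (Tef, 0.975, close to Dbp, 0.967; Dbp on plain FPKM). Sik1, Gsk3b, Usp2, Klf9, further markers and overlapping genes were named after their values were seen. A few listed genes are counted but not reported singly here. Exon overlaps come from GENCODE vM21. Python 3.11.15, numpy 2.4.6, pandas 2.3.3 and matplotlib 3.10.9 were used.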

Additional observations from a re-analysis of the deposited data

How the results depend on the processing

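No paired analysis was possible because each dose is 1 library and no test was made. For the clock genes, 486 of 507 folds under an alternative kept their call or lack of one, 13 lost a call and 8 gained one. None of the called folds changed sign. The 486 overstate how firm the calls are, since 169 are of 10 against 5 µM, where no clock gene was called. Some alternatives, such as leaving out a lane of the third dose, could not change a fold. The losses, 9 at 10 against 0 µM and 4 at 5 against 0 µM, all fall on the few genes called there. With a pseudocount of 5 FPKM, 3 clock genes were called at 10 against 0 µM, and 6 other pathway genes at 10 and 6 at 5 against 0 µM. The counts over all genes were then 2744 at 10 against 0, 2390 at 5 against 0 and 48 at 10 against 5 µM, and Timeless was not called at 10 against 5 µM, which left 0. With a pseudocount of 0.1 FPKM, 5 clock genes were called at 5 against 0 µM, and 425 genes in all at 10 against 5 µM. At 2-fold, 0 clock genes were called in any comparison, 4 pathway genes at 10 against 0, 3 at 5 against 0 and 0 at 10 against 5 µM, and 1728, 1407 and 43 genes in all. In the lane 6 files alone 5 clock genes were called at 5 against 0 µM, and at 10 against 5 µM the lane 6 files gave 394 genes, the lane 7 files 395 and a filter of 5 FPKM 145. Equal sums (leaving out Snora62, listed in 1 lane of 5 µM) raise folds at 10 against 0 µM by up to about 0.22, less for genes at low levels, and give 3032 genes higher and 1601 lower, against 1978 and 2396 as deposited. Trimmed mean and median scaling raise these folds by less, and give 2135 genes higher and 2236 lower. The causes of these shifts were not tested.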
